A study of Rattus norvegicus with 8 samples.

Results

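In the colon of rats on 4 diets, 6 genes of peptide digestion and uptake were followed: *Slc15a1*, *Mme*, *Dpp4*, *Anpep*, *Enpep* and *Ace*. They were chosen by name, through the transcript record that the array gives for each probe, and all 6 passed the filter on dim probes, out of 19899 genes tested. Colon RNA came from 16 female Wistar rats, labelled as 6 weeks old, with 4 rats per diet out of the larger groups that were fed for 3 weeks. The reference diet (REF) was the standard AIN-93M chow, the C10 diet contained 10% cocoa, the cocoa fiber diet (CF) supplied cocoa fiber with very little polyphenol, and the inulin diet (I) supplied inulin as its soluble fiber. Two-color Agilent arrays, 8 in number, were hybridised with a pair of rats each, and a diet had 2 rats in Cy5 and 2 in Cy3. All arrays were on 1 slide in 2 columns of positions: C10 was placed in the first column (arrays 1 to 4), I in the second (arrays 5 to 8), and REF and CF in both. The labels give each rat 1 array and 1 dye, and it was counted once, although the study's methods describe each RNA as labelled in both dye orientations.

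Peptides that survive digestion in the gut lumen are trimmed at the surface of epithelial cells by membrane-bound peptidases and then taken up as di- and tripeptides. Slc15a1 (PEPT1) is the proton-coupled transporter of the apical membrane that carries such short peptides, and it is known for high levels in the small intestine and low levels in most of the colon. The peptidases differ in the bonds they cut: Dpp4 removes dipeptides after proline or alanine, Anpep (aminopeptidase N) removes neutral amino acids, Enpep (aminopeptidase A) removes acidic ones, Mme (neprilysin) cuts inside short peptides such as tachykinins, and Ace removes dipeptides from the other end, as in the formation of angiotensin II. Several of them are also made by other cells of the gut wall, so a signal from whole tissue is not a signal of the epithelium alone.

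The promoters of 4 of these genes are shown because *Slc15a1*, *Mme* and *Dpp4* were the members with higher signals under C10, described further on, and *Anpep* was not. The sequences are from RefSeq on the GRCr8 assembly and run, 5′ to 3′, from 250 bases before to 50 bases after an annotated start site. Capitals mark the letters of a searched motif on either strand.
Slc15a1 promoter, chr15:104949295-104949594, - strand: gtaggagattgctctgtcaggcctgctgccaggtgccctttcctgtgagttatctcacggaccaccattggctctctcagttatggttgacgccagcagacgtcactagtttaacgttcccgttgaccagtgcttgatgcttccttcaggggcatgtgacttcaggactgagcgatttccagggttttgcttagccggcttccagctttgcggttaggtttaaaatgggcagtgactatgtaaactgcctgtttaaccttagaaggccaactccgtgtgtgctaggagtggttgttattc
Mme promoter, chr2:149872247-149872546, + strand: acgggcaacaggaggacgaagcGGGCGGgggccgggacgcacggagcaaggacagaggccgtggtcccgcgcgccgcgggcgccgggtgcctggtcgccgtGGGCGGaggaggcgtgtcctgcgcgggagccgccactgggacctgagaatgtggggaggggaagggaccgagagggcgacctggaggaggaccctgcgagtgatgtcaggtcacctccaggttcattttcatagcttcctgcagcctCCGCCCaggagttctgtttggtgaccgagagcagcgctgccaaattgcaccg
Dpp4 promoter, chr3:67452373-67452672, - strand: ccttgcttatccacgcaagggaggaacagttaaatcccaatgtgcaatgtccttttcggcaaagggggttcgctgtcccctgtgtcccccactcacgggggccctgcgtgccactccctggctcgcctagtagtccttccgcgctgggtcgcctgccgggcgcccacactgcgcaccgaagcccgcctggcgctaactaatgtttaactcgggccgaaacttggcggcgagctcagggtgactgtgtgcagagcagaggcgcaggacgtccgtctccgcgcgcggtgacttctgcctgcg
Anpep promoter, chr1:143195052-143195351, - strand: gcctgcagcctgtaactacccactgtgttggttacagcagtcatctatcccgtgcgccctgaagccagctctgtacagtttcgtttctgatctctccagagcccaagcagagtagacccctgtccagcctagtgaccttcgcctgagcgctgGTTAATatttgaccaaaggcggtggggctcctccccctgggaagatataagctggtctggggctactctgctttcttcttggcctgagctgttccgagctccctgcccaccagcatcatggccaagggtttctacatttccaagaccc

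The motifs searched on both strands were GTTAAT (a homeodomain-type site), TTTATG (a CDX-type site), GGGCGG (the GC box of Sp1) and TATAAA (the TATA box). The window of *Mme* held GGGCGG at 3 places, starting 228, 149 and 2 bases before the start site, and 33.1% of all 33465 promoters hold this motif. The window of *Anpep* held GTTAAT once, 98 bases before the start, as do 7.44% of promoters. None of the 4 motifs was in the windows of *Slc15a1*, *Dpp4* or *Enpep*, and the window of *Ace*, not printed, held GGGCGG at 4 places and TATAAA at 1. TTTATG was in no window of the 6 genes and in 12.7% of all promoters, and TATAAA was in 14.2% of them. The windows of *Slc15a1*, *Mme* and *Anpep* lie inside the gene's annotated span, which starts farther upstream, and absence of these letters says nothing about a factor. The *Slc15a1* and *Dpp4* windows were 50.7 and 64.0% G and C, against 68.7% in *Mme* and 55.7% in *Anpep*.

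All 10 colonocyte markers, among them *Car1* and *Slc26a3*, were well above background in all 16 rats. Small intestinal markers such as *Fabp2* and *Apoa1* were too, so detection alone does not set the labelled tissue apart from small intestine. Some pieces stood apart within a diet. *Hoxb13*, a transcription factor of the hindmost gut, had a log2 signal of 6.60 in REF rat 4, 9.72 in CF rat 2 and 9.96 in I rat 2, against 12.36 to 14.88 in the other 13 rats, so every diet except C10 held 1 such piece. The 8 smooth muscle markers, such as *Myh11* and *Des*, averaged 12.27 in C10 rat 1 and 13.84 or more in every other rat. The 7 B cell markers averaged between 6.63 and 9.20 and spread widely within all 4 diets. These pieces are kept, and the results that rest on them are also given without them.

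By the brightest probe, signals of the transporter *Slc15a1* and of the peptidases *Mme* and *Dpp4* did not overlap between C10 and REF. Each C10 rat lay above the highest REF rat, with fitted changes of 3.44-, 2.65- and 2.03-fold. Only *Mme* passed both the adjusted p and the 2-fold limit. The values of *Anpep*, *Enpep* and *Ace* overlapped between C10 and REF. A gene was called at a limma adjusted p under 0.05 with a change of at least 2-fold, and 1 of the 6 genes was called (*Mme*), against 0.201% of all genes tested, or 0.0151% for calls in the upward direction. Of the 6, 3 had every C10 rat above every REF rat, against 2.58% of all genes, and 0 the reverse, against 2.02%. The same 3 were higher at an unadjusted p under 0.05, against 8.80% of all genes, and 0 were lower, against 8.33%. The median change of the 6 was 0.54 on the log2 scale in C10 against REF, beside 0.01 over all genes. It was 0.52 in CF and 0.22 in I against REF, each also beside 0.01 over all genes. In whole tissue, a change in the number of cells of a type and a change in RNA per cell cannot be told apart.

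The log2 signals of *Slc15a1*, the peptide transporter, were 7.74, 7.28, 7.90 and 6.86 in the REF rats and 8.51, 9.65, 7.95 and 10.62 in the C10 rats. The groups did not overlap, but C10 rat 3 lay only just above the highest REF rat, and the C10 rats spread far more widely (SD 1.19, n = 4) than the REF rats (SD 0.47, n = 4). The fitted log2 difference was 1.78 ± 0.51 (SE), with a 95% confidence interval of 0.69 to 2.88, a limma adjusted p of 0.103 and an exact two-sided permutation p of 0.0286, the smallest that 4 rats against 4 allow. The gene was therefore not called. Without C10 rat 1, the piece low in smooth muscle markers, the difference was 2.42 with a limma adjusted p of 0.0472, which would pass, and without C10 rat 4, the highest, it was 1.34.

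*Mme*, the endopeptidase neprilysin, had log2 signals of 7.74, 7.11, 7.75 and 6.97 in the REF rats and 8.84, 8.75, 8.08 and 9.11 in the C10 rats. The spread within each diet was similar (SD 0.41 in REF and 0.44 in C10, n = 4 each), and the lowest C10 rat lay 0.33 above the highest REF rat. The difference was 1.41 ± 0.28 (SE) on the log2 scale, with a confidence interval of 0.816 to 2.001, a limma adjusted p of 0.0336 and an exact permutation p of 0.0286. The call depended on single pieces: leaving out each of the 16 rats in turn kept it 11 times, and it was lost without REF rat 2 (1.16, limma adjusted p 0.176), C10 rat 2 (1.23, 0.104) or REF rat 4 (1.26, 0.0913), and narrowly without CF rat 3 (0.0568) or I rat 4 (0.0631). Over the 14 other settings tried, 10 kept the call, with limma adjusted p from 0.0129 to 0.25.

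*Dpp4*, the dipeptidyl peptidase, had log2 signals of 10.36, 10.11, 10.49 and 9.67 in the REF rats and of 11.28, 11.24, 10.67 and 11.07 in the C10 rats. The groups did not overlap, and the step between them was 0.18. The difference was 1.02 ± 0.25 (SE), with a confidence interval of 0.49 to 1.56, a limma adjusted p of 0.0671 and an exact permutation p of 0.0286. The second probe of *Dpp4* gave 0.85 ± 0.18 with a limma adjusted p of 0.0409 but stayed under 2-fold, so that neither probe was called. Without REF rat 3 the first probe passed both limits (1.14, limma adjusted p 0.037).

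*Anpep*, the neutral aminopeptidase, did not follow *Mme* and *Dpp4* in C10 against REF, and neither did *Enpep* or *Ace*. Its log2 signals were 7.69, 7.48, 7.83 and 7.58 in REF and 7.71, 7.80, 7.22 and 7.75 in C10, a difference of 0.05 ± 0.12 (SE) with a confidence interval of -0.20 to 0.31. *Enpep*, the acidic aminopeptidase, had 8.51, 8.81, 8.53 and 8.65 in REF and 8.02, 8.79, 8.36 and 8.23 in C10. The C10 rats other than rat 2 were below every REF rat, and the difference was -0.25 ± 0.13 (SE, limma adjusted p 0.332). *Ace* lay between 8.30 and 8.91 in all 16 rats, and its C10 against REF difference was 0.00 ± 0.10 (SE) with a confidence interval of -0.22 to 0.23.

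**Figure D1:**
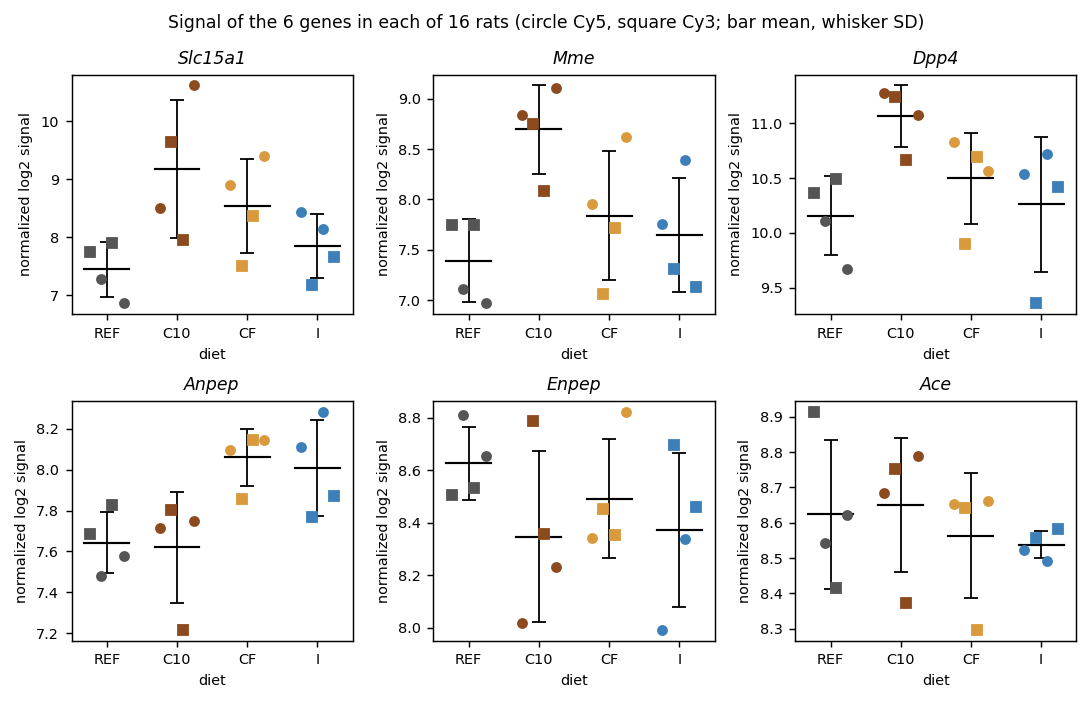
Normalized log2 signal of the 6 genes (vertical axes, each with its own range) in each rat, by diet (horizontal axes), for the brightest probe; circles are rats labelled with Cy5, squares with Cy3, bars are means and whiskers SD of 4 rats. All C10 rats lie above all REF rats for *Slc15a1*, *Mme* and *Dpp4*, whereas *Anpep* is highest in the CF and I rats and *Ace* stays between 8.30 and 8.91.

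On the 2 arrays that held both diets, C10 exceeded REF each time for the transporter and both leading peptidases. *Slc15a1* was 0.76 higher in the C10 rat of array 1 and 2.37 higher in that of array 2, on the log2 scale. *Mme* was 1.10 and 1.64 higher, and *Dpp4* 0.92 and 1.13 higher. The dyes were swapped between these arrays. With the position on the slide as a further term, the differences were 1.86, 1.49 and 1.04, with limma adjusted p of 0.136, 0.0411 and 0.0992.

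None of the 6 genes was called in CF or in I against REF, where 0% of all genes were called in either comparison. *Anpep* alone of the 6 passed an unadjusted p under 0.05, in both comparisons, against 6.40% of all genes for CF and 5.70% for I. *Anpep* had log2 signals of 8.09, 7.86, 8.15 and 8.15 in the CF rats and 8.11, 7.77, 8.28 and 7.87 in the I rats. Every CF rat was above every REF rat, as in 1.14% of all genes, and 3 of the 4 I rats were. The difference from REF was 0.51 ± 0.13 (SE, limma unadjusted p 0.00164, adjusted p 0.686) for CF and 0.38 ± 0.12 (SE, unadjusted p 0.00698, adjusted p 0.803) for I, so neither held after adjustment over all genes. The exact permutation p were 0.0286 and 0.0571.

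*Slc15a1* under the fiber diets was scattered, with log2 signals of 8.89, 7.51, 8.37 and 9.41 in the CF rats and 8.44, 7.17, 8.14 and 7.65 in the I rats. All CF rats except rat 2 were above every REF rat. The CF difference was 1.07 ± 0.55 (SE, limma adjusted p 0.805), with a confidence interval from -0.11 to 2.26 that holds both no change and a change as large as that of C10. For I it was 0.33 ± 0.51 (SE, adjusted p 0.960).

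*Mme* had 7.96, 7.06, 7.72 and 8.62 in CF and 7.76, 7.31, 8.39 and 7.13 in I, overlapping the REF rats in both diets. The differences from REF were 0.54 ± 0.30 and 0.24 ± 0.28 (SE), with limma adjusted p of 0.828 and 0.955. *Dpp4* had 10.83, 9.90, 10.69 and 10.56 in CF and 10.54, 9.36, 10.72 and 10.42 in I, and differed from REF by 0.55 ± 0.27 and 0.20 ± 0.25 (SE), with adjusted p of 0.794 and 0.960. In both fiber diets the lowest or next to lowest rat of *Slc15a1*, *Mme* and *Dpp4* was rat 2, the piece low in *Hoxb13*.

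*Enpep* had 8.34, 8.45, 8.35 and 8.82 in CF and 7.99, 8.70, 8.34 and 8.46 in I, and its differences from REF were -0.10 ± 0.14 and -0.25 ± 0.13 (SE). *Ace* differed from REF by -0.03 in both diets, with confidence intervals of -0.28 to 0.21 and -0.26 to 0.19. Both genes overlapped REF in each fiber diet.

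No member was called in C10 against CF, where 0.101% of all genes were, or in C10 against I, where 0.161% were. C10 and I shared no array and lay in different columns of the slide. With the position on the slide as a further term, 13 genes were called in C10 against I instead of 32, and again no member. The difference of *Mme* was 0.87 ± 0.28 (SE, limma adjusted p 0.187) from CF and 1.17 ± 0.30 (SE, adjusted p 0.120) from I, and in each case 1 fiber rat reached into the range of C10. Without REF rat 1 the comparison with I passed (adjusted p 0.0486). *Dpp4* differed by 0.47 ± 0.25 from CF and 0.83 ± 0.27 from I, with adjusted p of 0.432 and 0.221.

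*Slc15a1* differed by 0.71 ± 0.51 (SE) between C10 and CF, with an adjusted p of 0.580, and by 1.45 ± 0.55 between C10 and I, with an adjusted p of 0.308. The first of these rested on C10 rat 4, the highest of all rats, without which it was -0.01. *Anpep* ran the other way. All 4 C10 rats were below all 4 CF rats, as in 1.95% of all genes, by 0.45 ± 0.12 on the log2 scale (limma adjusted p 0.118, exact permutation p 0.0286), and C10 was below I by 0.33 ± 0.13 (adjusted p 0.330). These comparisons share the C10 rats with the comparison against REF and are no separate support for it. CF and I differed by at most 0.74 in any member, with no call among all 19899 genes (0%).

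**Figure D2:**
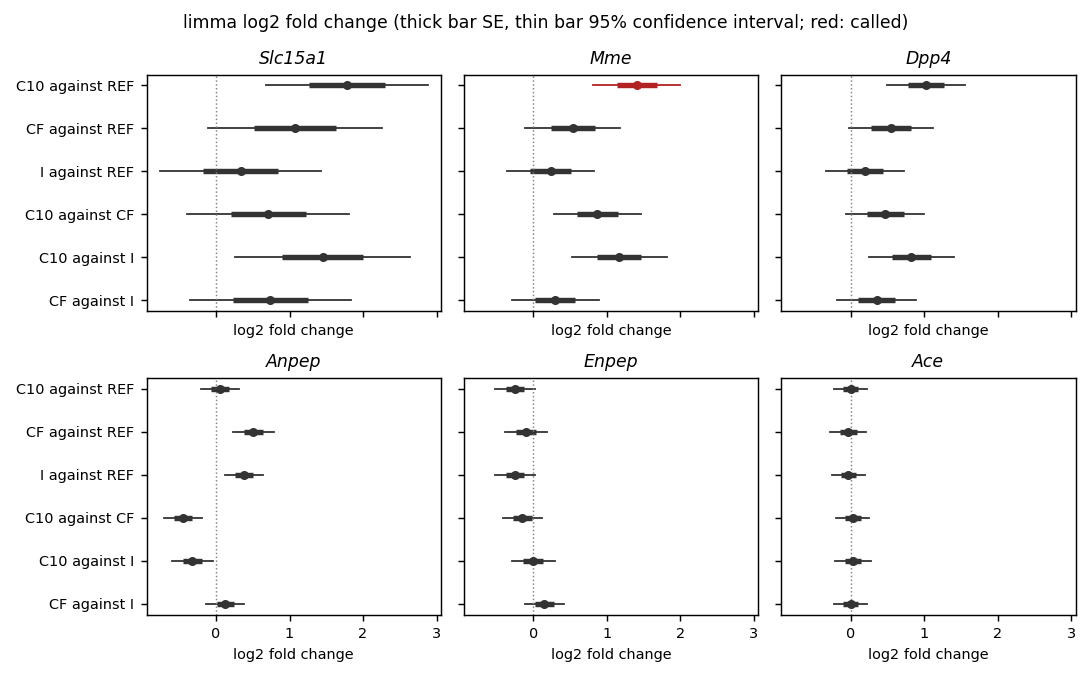
Log2 fold change of each gene (horizontal axis) in the 6 comparisons of diets (vertical axis) from limma; points are estimates, thick bars SE, thin bars 95% confidence intervals, and red marks a call. *Mme* in C10 against REF is the only call, and the intervals of *Ace* lie within 0.28 of 0.

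By mean signal, *Slc15a1*, *Mme* and *Dpp4* shared the order C10, CF, I and REF. Neighbours in that order overlapped in every case (exact permutation p 0.0571 to 0.743). In the limma fit *Mme* was higher in C10 than in CF by 0.87, with an interval of 0.28 to 1.47 (adjusted p 0.187). The intervals of the other neighbours in that order held no change. The order of *Anpep* was CF, I, REF and C10. That of *Enpep* was REF, CF, I and C10, and that of *Ace* was C10, REF, CF and I. Neighbours in these orders overlapped too (exact permutation p 0.0571 to 0.943). *Anpep* was higher in I than in REF by 0.38 in the limma fit, with an interval of 0.12 to 0.64 (adjusted p 0.803). The intervals of the other neighbours in these orders held no change.

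*Slc15a1* was measured by 3 probes, and the 2 dimmer ones, designed on another transcript record of the gene, gave smaller changes. Their C10 against REF differences were 0.51 ± 0.20 (SE, limma adjusted p 0.208) and 0.74 ± 0.21 (SE, adjusted p 0.108). They were well above background in 9 and 14 of 16 rats, and in 1 and 3 of the 4 REF rats. On the first of them C10 and REF overlapped, since C10 rats 1 and 3 (6.29 and 6.32) lay below REF rat 3 (6.37). On the second, the lowest C10 rat (6.52) was just above the highest REF rat (6.51). The part of the array floor or of the transcript record in their smaller changes was not tested. Across the 16 rats these 2 dimmer probes tracked the bright probe, with Pearson r of 0.87 and 0.94. The 2 probes of *Dpp4* tracked each other as well (0.92). The 2 probes of *Ace* did not (0.27), both of them varying little. *Mme*, *Anpep* and *Enpep* have 1 probe each, with nothing to set beside it.

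**Figure D3:**
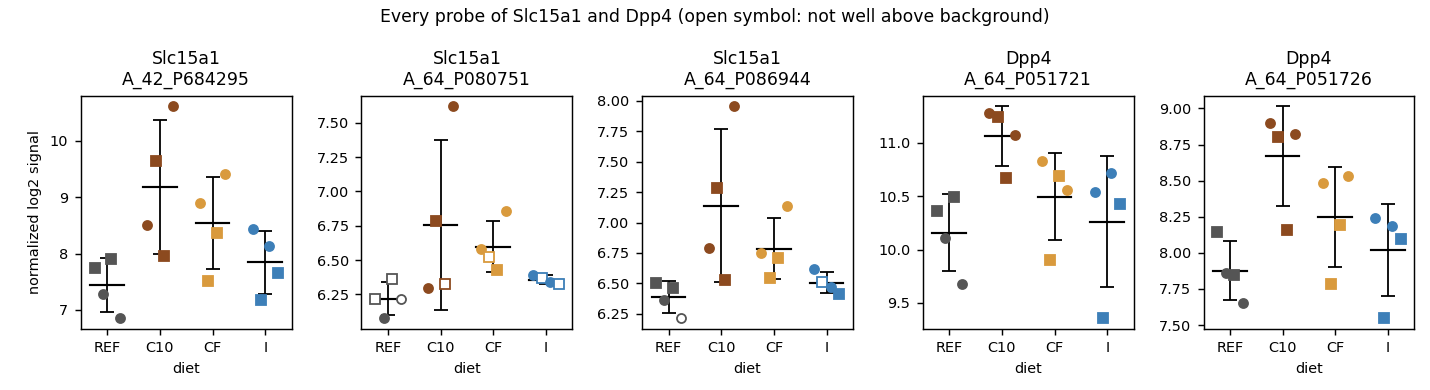
Normalized log2 signal (vertical axes) of the 3 probes of *Slc15a1* and the 2 of *Dpp4* in each rat, by diet; symbols are as in the plot of signals by diet, and open symbols were not well above background. C10 rat 4 is the highest rat in all 3 panels of *Slc15a1*, and the C10 mean is the highest in each panel.

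The 3 genes that were higher in C10 also varied together. Over 16 rats and after removal of the dye effect, Pearson r was 0.86 for *Slc15a1* with *Mme*, 0.77 for *Slc15a1* with *Dpp4* and 0.82 for *Mme* with *Dpp4*, and Spearman's rho was 0.81, 0.79 and 0.80. Of 15 pairs, these 3 had permutation p, adjusted over the pairs, of 3e-04, 0.00365 and 0.00105 for r and 0.002 each for rho, and no other pair was under 0.402. Without the 2 rats farthest from the median of the first gene, r was 0.77, 0.73 and 0.72. Within diets it was 0.75, 0.57 and 0.63, given without a test. The permutations shuffled rats across diets and arrays, so their p also take in the diet differences that these genes share. *Anpep* had r of 0.26, 0.13 and 0.16 with these genes over all rats and of 0.70, 0.80 and 0.75 within diets, where its different order of diets is taken out. All of these values come from the same 16 libraries.

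*Hoxb13* ran with the same 3 genes. Since 3 pieces were far below the rest, the relation was taken over the other 13 rats. Pearson r was 0.88 for *Slc15a1*, 0.83 for *Mme* and 0.72 for *Dpp4*, with permutation p adjusted over the 6 members of 0.00078, 0.0012 and 0.0116. Spearman's rho was 0.89, 0.74 and 0.58, with adjusted p of 0.00048, 0.0164 and 0.0824, so the rank relation of *Dpp4* did not hold after adjustment. Without the 2 rats farthest from the median of *Hoxb13*, r was 0.88, 0.63 and 0.54, and within diets it was 0.78, 0.79 and 0.58. Here too the permutations shuffled rats across diets and arrays, and r within diets was not tested. For *Anpep* r was 0.28, and 0.82 within diets. *Enpep* and *Ace* had r of -0.17 and 0.15.

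*Hoxb13* was 13.40 to 14.88 in the C10 rats and 6.60 to 14.01 in the REF rats, overlapping, and its difference of 2.77 ± 1.37 (SE, limma adjusted p 0.320) did not pass. With *Hoxb13* as a covariate, an alternative added after the data were seen, the C10 against REF differences fell to 1.04 ± 0.41 for *Slc15a1*, 0.996 ± 0.23 for *Mme* and 0.58 ± 0.16 for *Dpp4* (SE), with limma adjusted p of 0.409, 0.139 and 0.221. *Mme* then was not called. With the 3 low pieces left out, likewise added, they were 1.44 ± 0.45, 1.27 ± 0.24 and 0.83 ± 0.14 (SE), with adjusted p of 0.185, 0.0492 and 0.0316, and *Mme* was called. Of the 5 measured posterior Hox genes, 4 had a higher mean in C10, *Hoxd10* and *Hoxd13* (1.01 ± 0.43, SE) at an unadjusted p under 0.05, as do 8.80% of all genes, and *Hoxa11* was lower at the same limit (-0.77 ± 0.30), as are 8.33%. None passed after adjustment. Whether the position of the piece along the colon has a part in the differences between diets was not tested.

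Of the 8 smooth muscle markers, 8 had a negative fitted difference from REF in C10. Of these, 6 were at an unadjusted p under 0.05, against 8.33% of all genes lower at that limit, and none passed after adjustment. In CF and in I, 8 of 8 markers also had a negative fitted difference. Their mean per rat was 12.27 in C10 rat 1 and 14.42 to 14.51 in the other C10 rats, which lie within the REF range of 14.30 to 14.86. With this mean as a covariate, also added after the data were seen, the differences were 2.37 ± 0.59 for *Slc15a1*, 1.60 ± 0.33 for *Mme* and 1.01 ± 0.31 for *Dpp4* (SE), with limma adjusted p of 0.0778, 0.0476 and 0.141. The colonocyte list averaged 13.10 ± 0.36 in C10 and 13.00 ± 0.42 in REF (SD, n = 4 each), and 0 of its 10 genes passed after adjustment. Markers of other cells went both ways in C10 against REF. By the fitted difference, 7 of 7 B cell, 6 of 8 T cell and 5 of 7 endothelial markers were higher, and none of them passed after adjustment. In other lists, 4 of 6 pericyte, 4 of 6 adipocyte and 5 of 7 myeloid markers were lower, and 2 in each of these lists were higher. Among the higher were *Pdgfrb* of pericytes (0.23 ± 0.10, SE, limma adjusted p 0.257), *Pck1* of adipocytes (0.60 ± 0.22, adjusted p 0.194) and *Cd14* of myeloid cells (0.30 ± 0.15, adjusted p 0.312). *Rgs5* of pericytes differed by -0.96 ± 0.21 (SE, limma adjusted p 0.0487), with all C10 rats below all REF rats, as in 2.02% of all genes. *Fabp4* (-1.06 ± 0.27, SE, adjusted p 0.0782) and *Lpl* (-0.61 ± 0.16, adjusted p 0.0787) of adipocytes did not overlap either, and *Adgre1* (-0.67 ± 0.17, adjusted p 0.0773) and *Cd68* (-0.41 ± 0.13, adjusted p 0.140) of myeloid cells did. Of 7 fibroblast markers 6 had a lower mean, 2 at an unadjusted p under 0.05, against 8.33% of all genes. The part of these cells in the members' differences was not tested.

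**Figure D4:**
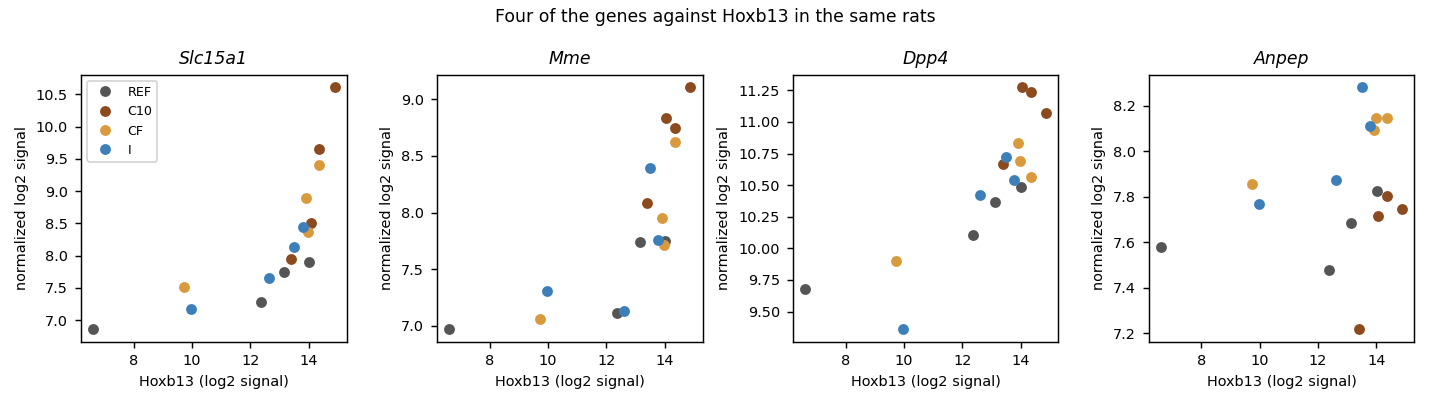
Normalized log2 signal of *Slc15a1*, *Mme*, *Dpp4* and *Anpep* (vertical axes) against that of *Hoxb13* (horizontal axes) in the 16 rats, coloured by diet. The 3 rats under 10 on the horizontal axis are REF rat 4, CF rat 2 and I rat 2, and all 4 C10 rats lie at 13.40 or above.

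The genes whose signal over the 16 rats was most like that of *Slc15a1* were *Pde7a* (Pearson r 0.96), *P2ry6* (0.95), *Hoxd10* (0.94), *Prdx5* (0.94) and *Trpv1* (0.93). For *Mme* they were *Urah* (0.94), *Slc41a3*, *Tesk2*, *Tm7sf2* and *Prelp* (0.90), and for *Dpp4* they were *Phlpp1* (0.92), *Ctse*, *Capza1*, *Urah* and *B3gnt7* (0.88). *Urah* thus stood in the lists of both peptidases. The closest gene was *Aebp1* for *Anpep* (0.83), *Slitrk6* for *Enpep* (0.89) and *Mdh1* for *Ace* (0.82). They were picked as the highest among genes with a symbol and are given without a test.

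None of the other genes of peptide and amino acid handling was called, since none passed the adjusted p with a 2-fold change, and 2 passed the adjusted p alone, beside 0.985% of all genes. Of 20 further surface peptidases listed, 12 were measured above the filter. Of these, 9 had a positive fitted difference from REF in C10, as did 6 in CF and 6 in I. The median log2 difference in C10 was 0.12, beside 0.01 over all genes. *Mep1b*, the beta subunit of the metallopeptidase meprin, rose: its log2 signals were 13.15, 13.39, 12.96 and 13.45 in REF and 13.84, 14.29, 13.73 and 14.42 in C10, without overlap, and it differed by 0.87 ± 0.17 (SE, limma adjusted p 0.0317). With *Hoxb13* as a covariate the difference of *Mep1b* was 0.77 with an adjusted p of 0.170, and over 30 alternatives its adjusted p ran from 0.00548 to 0.265, under 0.05 in 19. *Cpm*, a carboxypeptidase, differed by 0.22 ± 0.09 (SE, adjusted p 0.247).

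Inside the cell, absorbed peptides are cut to amino acids by cytosolic peptidases, of which 14 of 16 listed were measured. Of the 14, 12 had a positive fitted difference from REF in C10, as did 13 in CF and 9 in I. In C10 none passed the adjusted p. The largest at an unadjusted p under 0.05 was *Rnpep*, an aminopeptidase of basic residues, at 0.20 ± 0.09 (SE, adjusted p 0.285). Among the relatives of *Slc15a1*, *Slc15a4*, a lysosomal transporter of histidine and short peptides, differed by 0.39 ± 0.13 (SE, adjusted p 0.157), *Slc15a3* was measured without passing, and *Slc15a2* and *Slc15a5* were below the filter. Of 13 amino acid transporters measured, 9 had a positive fitted difference from REF in C10, as did 9 in CF and 6 in I. *Slc16a10*, which exports aromatic amino acids, was above every REF rat in all 4 C10 rats (0.31 ± 0.07, SE, adjusted p 0.0524).

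Slc15a1 is driven by protons that apical sodium-proton exchangers supply. Of 4 genes measured for this coupling, 2 had a positive and 2 a negative fitted difference from REF in C10, with a median of 0.04. The exchanger *Slc9a3* differed by -0.17 ± 0.30 (SE, limma adjusted p 0.830). *Slc9a2*, another exchanger, had log2 signals of 11.86, 11.99, 11.51 and 12.02 in REF and 12.38, 12.73, 12.23 and 12.12 in C10. The groups did not overlap, and the difference was 0.56 ± 0.19 (SE, limma adjusted p 0.157). Of 8 measured genes of brush border structure, 7 had a positive fitted difference from REF in C10, as did 6 in CF and 7 in I. In C10 they included *Espn*, an actin bundler (0.28 ± 0.11, SE, adjusted p 0.221), and *Ush1c*, a scaffold of the links between microvilli (0.23 ± 0.08, SE, adjusted p 0.187). For both, all C10 rats lay above all REF rats, as in 2.58% of all genes. The sugar and phosphate hydrolases held the other gene past the adjusted p. *Alpl*, an alkaline phosphatase, fell by 0.30 on the log2 scale (SE 0.06, adjusted p 0.0464), with all C10 rats below all REF rats but only 1 of 4 C10 rats well above background, and its adjusted p stayed under 0.05 in 12 of 30 alternatives.

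Of 7 intestinal transcription factors measured, none passed the adjusted p, and *Hnf4a*, a regulator of the absorptive epithelium, differed by 0.21 ± 0.08 (SE, adjusted p 0.205). Of 16 measured peptide substrates and receptors, 12 had a negative fitted difference from REF in C10, as did 12 in CF and 11 in I. In C10, 5 were lower and 1 higher at an unadjusted p under 0.05, against 8.33 and 8.80% of all genes, and none passed after adjustment. *Tac1*, which encodes substance P, a substrate of neprilysin, had 9.39, 9.84, 9.80 and 9.15 in REF and 6.48, 9.32, 9.40 and 8.80 in C10, a difference of -1.13 ± 0.41 (SE, adjusted p 0.185). Its lowest value was C10 rat 1, the piece low in smooth muscle markers, where *Tacr2*, the neurokinin A receptor, and *Penk*, the proenkephalin gene, were lowest too. *Tacr2* differed by -0.85 ± 0.31 (SE, adjusted p 0.191) and *Penk* by -0.46 ± 0.16 (SE, adjusted p 0.162). Without C10 rat 1 the differences were -0.33 ± 0.22 for *Tac1*, -0.30 ± 0.21 for *Tacr2* and -0.21 ± 0.12 for *Penk* (SE, adjusted p 0.522, 0.558 and 0.430). *Pdyn*, the prodynorphin gene, was 6.12, 6.93, 7.16 and 8.65 in C10 and 6.18 to 6.49 in REF, and it was well above background in only 2 REF rats and 3 C10 rats. The fitted difference of 0.82 ± 0.31 (SE, adjusted p 0.202) ran from 0.43 to 1.65 over 30 alternatives and passed in 2 of them, one being without C10 rat 1 (1.30, adjusted p 0.0327).

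**Figure D5:**
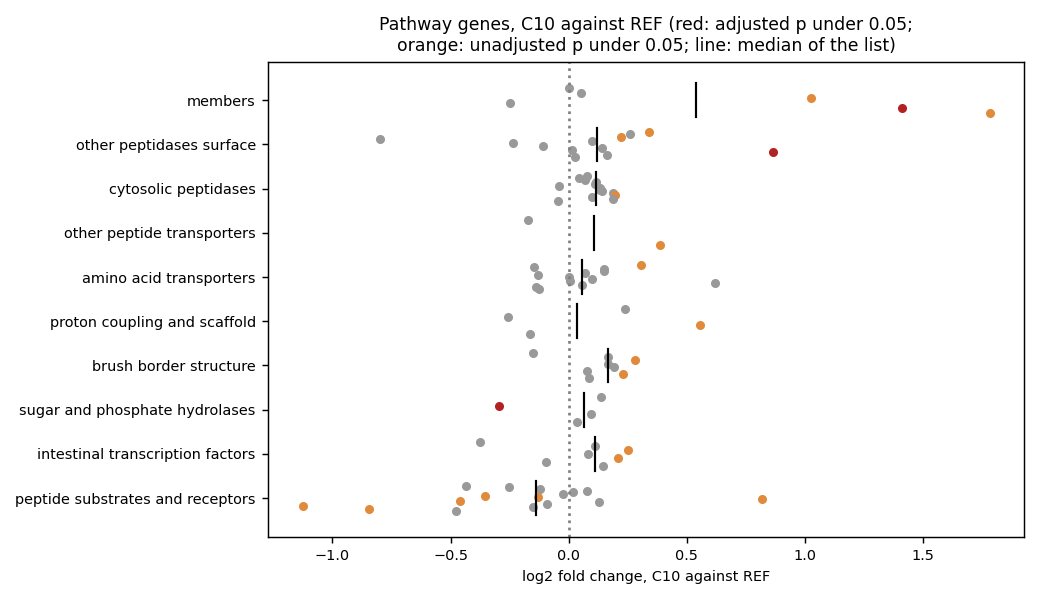
Log2 fold change of C10 against REF (horizontal axis) for the 6 members and each measured gene of 9 further lists (vertical axis); each point is a gene, red marks a limma adjusted p under 0.05, orange an unadjusted p under 0.05, and the line is the median of the list. *Mme*, *Mep1b* and *Alpl* are the red points.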

How the data were processed

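Two-color Agilent arrays measured colon RNA of 16 rats. The authors deposited the raw scanner tables (Agilent Feature Extraction 10.7.3.1), with a median intensity and a local background per spot and dye. The deposited tables also hold processed intensities, used in 1 alternative. A normalized matrix was not used here, since the names of its 8 columns match no label.

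In R 4.3.3, limma 3.58.1 was used: normexp with offset 50, spatial loess (span 0.4), intensity loess (span 0.3) and Aquantile, the steps of the study's methods, with offset and spans chosen here. Spots of a probe were averaged. A filter (above background in 4 or more rats) kept 22537 of 30367 probes, and 19899 genes were tested, each by its brightest probe. A log2 signal is that of 1 dye after these steps. Spots above background made up 74.3 to 83.9% in Cy5 and 68.6 to 75.3% in Cy3, the floor lay at log2 5.82 to 6.21, and 0 spots were saturated. The number of arrays limits the precision.

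Diet and dye were fixed terms and array a random block (correlation 0.42), over all 16 rats, with Benjamini-Hochberg adjustment over all genes. Single genes also had exact two-sided permutation tests of 4 rats against 4, and correlations had permutation tests with unrestricted shuffling of rats. On simulated data with C10 against REF changes, 96 to 100% of genes altered by 1.5 or 2 on the log2 scale were recovered, with 50 genes of each size. These genes were drawn at random and given normal noise from the fitted model. The share recovered therefore does not carry over to genes as variable as *Slc15a1*. Rank product, the study's test, was not run, as it resamples genes.

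All 6 members and, from each pathway list, called genes, the 4 largest C10 against REF changes at an unadjusted p under 0.05 and genes without overlap at 1.5-fold or more are named, besides the 5 genes most like each member. Some genes that this rule names are not reported here. The members and lists were chosen with earlier results of these data known. Alternatives were another offset, the processed intensities, other normalizations and filters, the mean of probes, fits without dye, without block, with slide position or on log-ratios, and leaving out each rat. Other probes of a member, *Hoxb13* and smooth muscle covariates, and leaving out 3 *Hoxb13*-low pieces were chosen after seeing the data. Promoter sequences are from RefSeq, GRCr8, and array genes were named through their transcript records.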

Additional observations from a re-analysis of the deposited data

Results flagged for a closer look

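In REF, C10, CF and I, each of the 6 genes was checked for a rat far from the other 3, 24 groups in all, of which chance marks about 1 in 20. In 2 groups the gap between the extreme rat and its nearest neighbour, divided by the range of the group, exceeded Dixon's 95% limit for 4 values. *Anpep* in C10 rat 3 was the lowest of its group at 7.22, with a ratio of 0.845, and without this rat the C10 against REF difference was 0.16 and that against CF was -0.29. *Ace* in CF rat 3 was the lowest at 8.30, with a ratio of 0.942, and without it the CF against I difference was 0.10.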

How the results depend on the processing

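The count of members called in C10 against REF was 1, and it was 2 without normalization between arrays and 0 without the dye term, without the array block, on log-ratios within arrays or with *Hoxb13* as a covariate. Leaving out single rats gave 0 to 2 in C10 against REF and 0 to 1 in C10 against I. All genes called in C10 against REF numbered 40, and 56, 21, 17, 0 and 13 under those 5 settings in that order, 65 with no offset, 93 with processed intensities, 26 with no filter or without the *Hoxb13*-low rats, and 17 to 95 when single rats were left out. *Mme* was 1.37 (limma adjusted p 0.0801), 1.30 (0.135) and 1.56 (0.25) without the dye term, without the block and on log-ratios, and *Dpp4* passed without normalization between arrays (1.12, 0.0301). The causes were not tested.

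Signs changed as follows. For *Ace*, C10 against CF was -0.0021 without normalization between arrays, -0.0055 with the mean of probes, -0.023 with slide position, -0.043 on log-ratios and -0.043 with the other probe. C10 against I was -0.0060, -0.078 and -0.078 without normalization between arrays, with slide position and on log-ratios. C10 against REF was -0.0037, -0.055 and -0.035 in these, -0.014 without the *Hoxb13*-low rats and -0.013 with *Hoxb13* as a covariate. CF against I was -0.0039, -0.055 and -0.035 in these, -0.0064 with quantile normalization, -0.021 without the *Hoxb13*-low rats, and -0.00045 and -0.0042 with *Hoxb13* and smooth muscle as covariates. CF against REF was 0.021 with the mean of probes, 0.0081 on log-ratios, 0.0047 with smooth muscle and 0.074 with the other probe. I against REF was 0.0024, 0.023 and 0.043 without normalization between arrays, with slide position and on log-ratios, and 0.0089 with smooth muscle. *Anpep* in C10 against REF was -0.022 without the block and -0.077 with *Hoxb13*. *Enpep* in C10 against I was -0.0072 without the dye term, -0.025 without the block and -0.0079 without the *Hoxb13*-low rats.

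With single rats left out, *Ace* ranged from -0.035 to 0.14 in C10 against CF, -0.053 to 0.12 in C10 against I, -0.10 to 0.15 in C10 against REF, -0.043 to 0.10 in CF against I, -0.096 to 0.097 in CF against REF and -0.088 to 0.071 in I against REF. *Anpep* in C10 against REF ranged from -0.084 to 0.16, *Enpep* in C10 against I from -0.098 to 0.089, *Dpp4* in I against REF from -0.087 to 0.42, and *Slc15a1* from -0.0084 to 1.22 in C10 against CF and from -0.096 to 0.65 in I against REF. Signals near the floor of the array understate changes.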
